A study of Mus musculus with 4 samples.

Results

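A set of 7 histone deacetylase genes was followed through 4 chromatin immunoprecipitation libraries made with an antibody against acetylated histone H3, a mark of active promoters. They were chosen by name and are Hdac1, Hdac2, Hdac3 and Hdac8 (class I), Hdac6 and Hdac10 (class IIb) and Hdac11, which is usually placed in a class of its own, class IV. Their 7 promoters are among 23631 genes in the deposited promoter counts, and all 7 passed the filter on low counts, which left 22835 genes. Where a gene had several RefSeq transcripts, the one with the highest mean count stood for it. This choice had no effect on the deacetylases, because the 4 listed transcripts of Hdac10 had identical counts, as had both of Hdac6, and each other gene had a single one.

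The tissue was left ventricle of male C57BL6 mice aged 10 to 12 weeks, with 1 library in each of 4 groups. Sham Veh was sham surgery with injections of the solvent DMSO, and Sham TSA was sham surgery with trichostatin A (TSA). TAC Veh was transverse aortic constriction, a narrowing of the aorta that loads the ventricle with pressure, with DMSO, and TAC TSA was the same surgery with TSA. Per the labels, TSA was given at 0.6 mg per kg per day, and both kinds of injection were made 2 times a day for 4 weeks. By the labels, both sham libraries and neither TAC library refer to an earlier deposit, so surgery and deposit cannot be told apart. How many mice went into a library is not given in the sources used here. No value has a replicate, so every interval covers counting error only, and a difference between libraries is not shown to be one between conditions. In whole ventricle, a change in the mix of cells and a change in acetylation per cell cannot be told apart.

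Deacetylases remove acetyl groups from lysines of histones and other proteins. The class I enzymes Hdac1 and Hdac2 act in the SIN3, NuRD and CoREST complexes, Hdac3 in the NCoR and SMRT complex, and Hdac8 outside these complexes. Hdac6 is a mainly cytoplasmic enzyme that deacetylates tubulin, and Hdac10 acts on acetylated polyamines. TSA blocks the zinc-dependent catalytic site of these enzymes. The counts describe acetylation of histones at the genes that encode them, and say nothing directly of the activity of the enzymes.

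Promoter sequence from RefSeq was at hand for 4 of the 7 genes, and is shown because CpG content, which goes with promoter acetylation across genes, differed among them. Each line gives the 250 bases before the start site in the direction of the gene, in the GRCm38.p6 build, with CpG dinucleotides in capitals. The submitters' notes name the mm9 build, so these coordinates are not those of the count windows, and the table does not tie a start site to a transcript. The order is Hdac2 (chr10:36974294-36974543, plus strand), Hdac11 (chr6:91156565-91156814, plus strand), Hdac6 (chrX:7947890-7948139, minus strand) and Hdac8 (chrX:102505159-102505408, minus strand).
Hdac2: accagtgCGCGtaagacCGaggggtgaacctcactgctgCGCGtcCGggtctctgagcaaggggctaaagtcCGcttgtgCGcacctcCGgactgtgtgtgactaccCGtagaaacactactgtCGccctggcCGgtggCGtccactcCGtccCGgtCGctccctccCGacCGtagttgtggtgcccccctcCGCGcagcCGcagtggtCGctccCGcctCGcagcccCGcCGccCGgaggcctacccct
Hdac11: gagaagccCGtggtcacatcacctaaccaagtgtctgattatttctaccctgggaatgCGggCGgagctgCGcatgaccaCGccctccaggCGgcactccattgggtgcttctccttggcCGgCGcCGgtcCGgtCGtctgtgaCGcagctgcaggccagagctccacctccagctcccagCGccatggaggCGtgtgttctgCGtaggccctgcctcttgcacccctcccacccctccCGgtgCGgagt
Hdac6: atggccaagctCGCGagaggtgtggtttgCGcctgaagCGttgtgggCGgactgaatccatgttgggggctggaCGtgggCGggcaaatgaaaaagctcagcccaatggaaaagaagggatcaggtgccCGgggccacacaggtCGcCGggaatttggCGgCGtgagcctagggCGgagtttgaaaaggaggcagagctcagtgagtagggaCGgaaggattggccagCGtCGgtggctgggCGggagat
Hdac8: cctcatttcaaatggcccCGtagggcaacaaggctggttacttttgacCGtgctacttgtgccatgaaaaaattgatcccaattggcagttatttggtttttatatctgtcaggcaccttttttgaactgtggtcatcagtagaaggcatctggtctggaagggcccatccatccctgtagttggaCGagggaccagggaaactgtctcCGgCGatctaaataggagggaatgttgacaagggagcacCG

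Hdac2 held 27 CpG dinucleotides in 250 bases, more than 91.4% of 32851 listed promoters. Hdac6 and Hdac11 held 17 each, more than 76.5% of promoters. Hdac8 held 6, which is the median of all listed promoters, at a GC content of 48.4% against 68.8% for Hdac2. Across 14391 genes with 1 listed promoter, CpG number and mean promoter count rose together (Spearman's rho 0.69), a description across genes that share libraries and base composition. Genes with at most 6 CpG had a median of 9.22 scaled CPM (promoter counts relative to library size in the usual CPM unit, with library sizes adjusted by edgeR's TMM factors), and genes with at least 17 a median of 67.8. Hdac8, at a mean of 26.2, lay above the first value, and Hdac6, at 27.2, lay below the second.

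The same windows were searched on both strands for 5 short motifs. The GC box GGGCGG, found in 32.7% of all listed promoters, occurred 4 times in Hdac6, 1 time each in Hdac2 and Hdac11 and not in Hdac8. The CCAAT box (CCAAT, 33.8% of promoters) occurred 2 times in Hdac6, 2 times in Hdac8, at overlapping positions, and 1 time in Hdac11. Hdac8 alone of the 4 held TATAAA (12.4% of promoters), starting 151 bases before the start site. The letters CCGGAA (12.0% of promoters) and TGACGTCA (1.55%) were in none of the 4 windows.

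Promoter counts were highest at Hdac3, Hdac10 and Hdac2 and lowest at the X-linked genes Hdac6 and Hdac8 (scaled CPM). Levels of different genes are compared on the assumption that all promoter windows have the same length, which the sources used here do not give. The counts are also not corrected for the number of X chromosomes in males. Lower counts at Hdac6 and Hdac8 are therefore not shown to be lower acetylation per gene copy. The means over 4 libraries, with the SD between libraries, were 104 ± 5.73 for Hdac3, 90.5 ± 3.86 for Hdac10, 80.8 ± 5.17 for Hdac2, 53.4 ± 4.37 for Hdac1, 48.6 ± 3.98 for Hdac11, 27.2 ± 3.26 for Hdac6 and 26.2 ± 2.48 for Hdac8. In this order the ranges of neighbours did not overlap, except that those of Hdac1 and Hdac11 did, and those of Hdac6 and Hdac8 did. Hdac1 was above Hdac11 in 3 of 4 libraries, and Hdac6 above Hdac8 in 2 of 4.

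**Figure D1:**
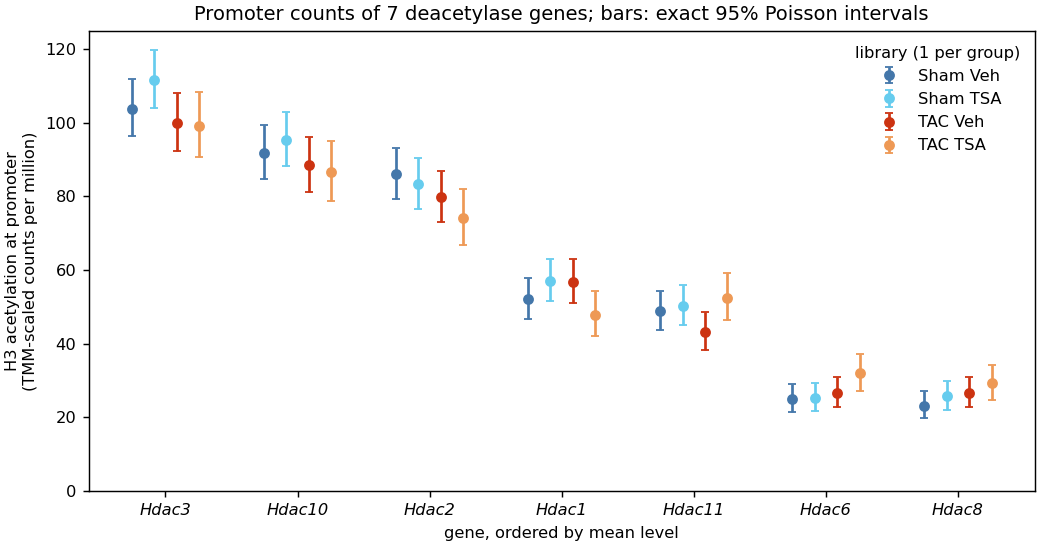
Scaled promoter CPM (vertical axis) of the 7 deacetylase genes (horizontal axis) in each of the 4 libraries, with exact 95% Poisson intervals as bars. Hdac3 lies between 99.3 and 112, Hdac8 between 23.2 and 29.2, and within a gene the highest library is at most 1.28 times the lowest.

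Every one of the 7 promoters stood above the median promoter of olfactory and vomeronasal receptors, 1274 genes known for expression in sensory neurons, which served as background. This median was 2.51 scaled CPM for Sham Veh, 2.60 for Sham TSA, 3.15 for TAC Veh, 4.37 for TAC TSA. By its mean, Hdac3 was 33.3 times the receptor median and Hdac8 8.40 times. Among the 22835 genes, 93.9% had a lower mean than Hdac3, 88.7% than Hdac10, 83.3% than Hdac2, 62.1% than Hdac1, 58.2% than Hdac11, 43.2% than Hdac6 and 42.5% than Hdac8. Both X-linked genes were in the middle of all promoters but in the upper part of their chromosome. Without receptors, the median of 807 X-linked genes was 13.3, against 42.9 for 20748 autosomal genes, and 69.8% of X-linked genes lay below Hdac6 and 67.4% below Hdac8.

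Library totals ranged from 6842296 promoter counts in TAC TSA to 9905553 in Sham TSA. These are sums over all RefSeq IDs, so a promoter listed under several IDs enters several times. The levels of cardiomyocyte genes could not check the tissue label, since they do not single out heart muscle. The median of 10 cardiomyocyte marker promoters lay between 47.0 scaled CPM in TAC Veh and 75.2 in Sham TSA. That of 10 endothelial markers lay between 73.9 in TAC Veh and 84.9 in Sham TSA. No cardiomyocyte marker was at 0, but neither was any of the 1274 receptor promoters. Receptor promoters held 0.411% of counts for Sham Veh, 0.417% for Sham TSA, 0.493% for TAC Veh, 0.660% for TAC TSA, and scaling on them instead shifted the median log2 ratio over all genes, by −0.24 for TAC Veh relative to Sham Veh, −0.38 for TAC TSA relative to TAC Veh, −0.59 for TAC TSA relative to Sham TSA and −0.03 for Sham TSA relative to Sham Veh. Ratios below are therefore relative to the bulk of promoters. A second scaling followed the mean ratio along the count level (loess), since ratios with the TAC TSA library were higher at promoters with few counts.

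With TMM scaling, none of the 7 deacetylase promoters differed 1.5-fold between any pair of libraries compared. A promoter was counted as apart when its ratio was at least 1.5-fold (0.58 on the log2 scale) and its 95% interval excluded 1. Over the 4 comparisons, which share libraries, the 28 log2 ratios ran from −0.25 to 0.34, and 26 of the 28 intervals lay wholly inside 1.5-fold in both directions. The other 2 belonged to Hdac6, in TAC TSA relative to TAC Veh (up to 0.59) and over Sham TSA (up to 0.66). Of the 28 intervals 5 excluded 0 with TMM scaling, and 1 did with loess scaling. With TMM scaling, 5.20 to 10.3% of all genes had an interval above 0, depending on the comparison, and 3.81 to 13.8% one below. With loess scaling these shares were 4.73 to 6.76% and 4.21 to 6.24%. When the receptor promoters set the scale, 1 of 7 was apart and lower in TAC TSA relative to TAC Veh, Hdac1 (−0.63), as were 14.3% of all genes. Relative to Sham TSA 4 of 7 were, Hdac1 (−0.85), Hdac2 (−0.76), Hdac3 (−0.76) and Hdac10 (−0.73), as were 52.1% of all genes. Both counts are near the share of all genes.

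**Figure D2:**
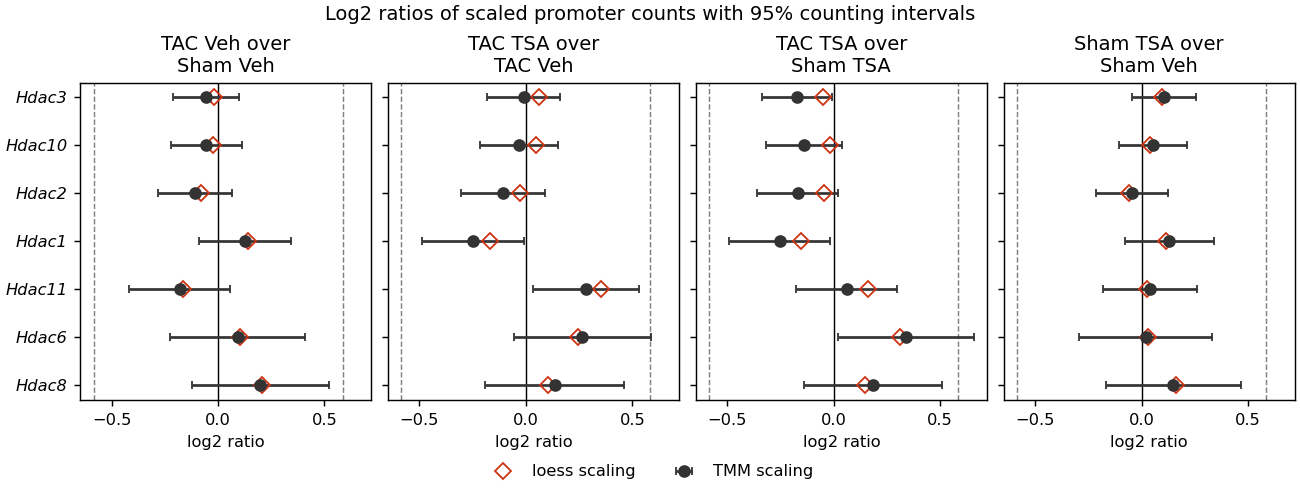
Log2 ratios (horizontal axis) of the 7 genes (vertical axis) in 4 comparisons of libraries, with TMM scaling as filled points, exact 95% intervals as bars and loess scaling as open diamonds. Dashed lines mark 1.5-fold, and no point reaches them. The largest ratio is that of Hdac6 in TAC TSA relative to Sham TSA, at 0.34.

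TAC Veh relative to Sham Veh asked what pressure overload did without the inhibitor. Here 0 of 7 deacetylase promoters were apart, where 2.51% of all genes were, and 0 of 7 intervals excluded 0, where 5.82% of genes had an interval above 0 and 7.20% one below. The median of the 7 was −0.06, against −0.00055 for all genes. The class I gene Hdac2, whose product is known for its part in cardiac hypertrophy, had 583 counts for Sham Veh, 507 for TAC Veh, a log2 ratio of −0.11 (−0.28 to 0.07). Hdac1, its close paralogue, had 353 and 361 counts (0.12, −0.09 to 0.34). Hdac3 had 704 and 635 counts (−0.06, −0.21 to 0.10). All 3 intervals included 0, and together the genes held 56.2% of the counts of the 7 promoters in Sham Veh and 56.1% in TAC Veh.

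The intervals of the remaining 4 genes also included 0. Hdac8 had 157 counts for Sham Veh, 169 for TAC Veh (0.20, −0.12 to 0.52). Hdac6 had 169 in both (0.09, −0.22 to 0.41), and Hdac10 623 and 562 (−0.06, −0.22 to 0.11). The lowest ratio of the 7 was that of Hdac11, with 331 and 274 counts (−0.18, −0.42 to 0.06), and 15.6% of all genes had a lower one.

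Over the same pair of libraries marker lists of cardiomyocytes had a median below 0, and those of fibroblasts and leukocytes one above. Of 10 cardiomyocyte markers 5 were apart and lower (median −0.57), namely the alpha myosin heavy chain Myh6 (−0.84, −1.05 to −0.64), the sarcomere genes Actc1 (−0.86) and Tnnt2 (−0.61), the calcium channel Ryr2 (−0.71) and Pln (−0.59). The summed level of all 10 cardiomyocyte markers was 633 scaled CPM in Sham Veh and 433 in TAC Veh. Of 10 fibroblast markers 2 were apart and higher (median 0.32), Postn at 0.79 and Mfap5 at 0.61, and of 11 leukocyte markers 1 was, the integrin Itgam at 0.60 (median 0.30). Of 10 endothelial markers 0 were apart (median −0.12). On the receptor scale 9 of 10 cardiomyocyte markers were apart and lower, and 0 fibroblast and 0 leukocyte markers were apart (medians 0.08 and 0.06). Of all 22835 genes, 860 were apart and lower on this scale and 119 apart and higher. The part of these markers in the ratios of the deacetylases was not tested. The summed level of the 7 deacetylases was 431 in Sham Veh and 421 in TAC Veh.

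TAC TSA relative to TAC Veh set the inhibitor against its solvent in animals with constriction. Again 0 of 7 were apart, where 4.40% of all genes were, and the median of the 7 was −0.01 against 0.0014 for all genes. The interval of Hdac11 lay above 0, as did those of 8.13% of genes, and that of Hdac1 lay below, as did those of 10.4%. Hdac11 had 274 counts for TAC Veh, 264 for TAC TSA, or 43.1 and 52.4 scaled CPM. Its ratio was 1.22-fold (0.28, 0.03 to 0.53), 80.1% of genes had a lower ratio, and with loess scaling it was 0.35 (0.10 to 0.60). Hdac1 had 361 and 241 counts, or 56.8 and 47.8 scaled CPM, and was 1.19-fold lower (−0.25, −0.49 to −0.01). With loess scaling Hdac1 was at −0.17 (−0.41 to 0.07), and its interval included 0.

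For the other 5 genes the intervals of TAC TSA relative to TAC Veh included 0. Hdac2 had 507 counts for TAC Veh, 373 for TAC TSA (−0.11, −0.30 to 0.09), and Hdac3 635 and 500 (−0.01, −0.18 to 0.16). Hdac10 had 562 and 436 counts (−0.03, −0.21 to 0.15). Among the X-linked genes, Hdac6 had 169 and 161 counts (0.27, −0.05 to 0.59) and Hdac8 169 and 147 (0.13, −0.19 to 0.46). In these same libraries 8 of 10 cardiomyocyte markers were apart and higher (median 0.68), Myh6 at 1.12 (0.91 to 1.33), Actc1 at 1.15, Ttn at 0.79, Ryr2 at 0.78, Mybpc3 at 0.68, Tnnt2 at 0.67, and Tnni3 and Pln at 0.61 each. With loess scaling 10 of 10 were, and on the receptor scale 2 of 10 (median 0.29). The fibroblast gene Postn was apart and lower (−0.85), as were the leukocyte genes C1qb (−0.87) and Ptprc (−0.65), where the leukocyte list had its median at −0.42. On the receptor scale 6 of 10 fibroblast and 8 of 11 leukocyte markers were apart and lower, where 14.3% of all genes were. The summed level of the cardiomyocyte markers was 727 scaled CPM in TAC TSA, against 421 for the 7 deacetylases, which had the same rounded sum in TAC Veh. The part of these markers in the ratios of Hdac1 and Hdac11 was not tested.

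TAC TSA relative to Sham TSA compared the surgeries in treated animals. Of the 7 promoters 0 were apart, where 7.40% of all genes were. Hdac6 had an interval above 0, as had 10.3% of genes, and Hdac1 and Hdac3 had intervals below 0, as had 13.8%. Hdac6 had 175 counts for Sham TSA, 161 for TAC TSA, which is 25.3 and 32.0 scaled CPM (0.34, 0.02 to 0.66), and 79.6% of genes had a lower ratio. Hdac1 had 395 and 241 counts (−0.25, −0.49 to −0.02), and Hdac3 774 and 500 (−0.17, −0.34 to −0.01). With loess scaling the values were 0.31 (−0.01 to 0.63) for Hdac6, −0.15 (−0.39 to 0.08) for Hdac1 and −0.05 (−0.22 to 0.11) for Hdac3, and all 3 intervals included 0. Hdac2 (−0.17, −0.36 to 0.02), Hdac10 (−0.14, −0.32 to 0.04), Hdac11 (0.06, −0.18 to 0.30) and Hdac8 (0.18, −0.14 to 0.51) had intervals that included 0 with TMM scaling. Of the marker lists, cardiomyocytes had 0 of 10 apart (median −0.01) and leukocytes 2 of 11, both lower (C1qb at −1.04 and Ptprc at −0.78). On the receptor scale 7 of 10 and 9 of 11 were apart and lower, as were 52.1% of all genes. The part of these markers in the ratios of the deacetylases was not tested.

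Sham TSA relative to Sham Veh set the inhibitor against its solvent in sham-operated animals. None of the 7 was apart (1.16% of all genes), and 0 of 7 intervals excluded 0, where 5.20% of genes had one above and 3.81% one below. Of the 7 ratios 6 were above 0, as were 51.8% over all genes, with a median of 0.05 against 0.01 for all genes. Hdac8 had the highest ratio, on 157 counts for Sham Veh, 178 for Sham TSA (0.15, −0.17 to 0.47). Hdac1 was at 0.13 (−0.08 to 0.34), Hdac3 at 0.11 (−0.04 to 0.25), Hdac10 at 0.05 (−0.11 to 0.21), Hdac11 at 0.04 (−0.18 to 0.26) and Hdac6 at 0.02 (−0.29 to 0.33). Hdac2 was lowest, with 583 and 577 counts (−0.05, −0.22 to 0.12). The 1 marker gene apart between these libraries was Ptprc, at 0.64. All 10 cardiomyocyte markers had ratios above 0 (median 0.19), 5 of them with an interval above 0, and leukocyte markers had a median of 0.28, with 3 of 11 intervals above 0. The part of these markers in the ratios of the deacetylases was not tested.

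The difference between the surgery ratio with TSA and that with vehicle, from the 4 counts, depended on the scaling for Hdac1. Its surgery ratio was 0.12 with vehicle and −0.25 with TSA, a difference of −0.38 (−0.69 to −0.06) with TMM scaling. With loess scaling the difference was −0.29 (−0.61 to 0.02), and its interval included 0. By TMM scaling 1 of 7 intervals lay below 0, where 9.14% of all genes had one below, and by loess scaling 0 of 7, where 6.34% had. On the receptor scale 4 of 7 did (Hdac1, Hdac2, Hdac3 and Hdac10), where 47.3% of all genes did. The other 6 genes had intervals that included 0 with TMM scaling. Hdac6 (0.25, −0.19 to 0.68) and Hdac11 (0.24, −0.09 to 0.57) had the highest differences, and Hdac2 (−0.06), Hdac3 (−0.11), Hdac8 (−0.02) and Hdac10 (−0.08) lay between.

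Shares within the 7 promoters were taken from raw counts, so a single factor per library leaves them as they are, but a correction along the count level, such as loess, does not. Hdac3 held 24.1% of their sum for Sham Veh (22.6 to 25.7, exact binomial), 24.9% for Sham TSA, 23.7% for TAC Veh, 23.6% for TAC TSA. The X-linked genes Hdac6 and Hdac8 together held 11.2% for Sham Veh (10.0 to 12.4), 11.4% for Sham TSA (10.3 to 12.5), 12.6% for TAC Veh (11.4 to 13.9), 14.5% for TAC TSA (13.0 to 16.1). The interval in TAC TSA did not overlap those of either sham library and overlapped that of TAC Veh. These intervals cover counting error of single libraries only. How many other pairs of genes show the same was not tested. Over the 4 libraries, the median of 807 X-linked genes ranged only from 13.5 scaled CPM (TAC TSA) to 13.7 (TAC Veh). Hdac6 and Hdac8 have the fewest counts of the 7. In TAC TSA relative to Sham TSA the loess curve was 0.03 at the count level of Hdac6 and −0.12 at that of Hdac3. The part of this trend in the share was not tested.

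**Figure D3:**
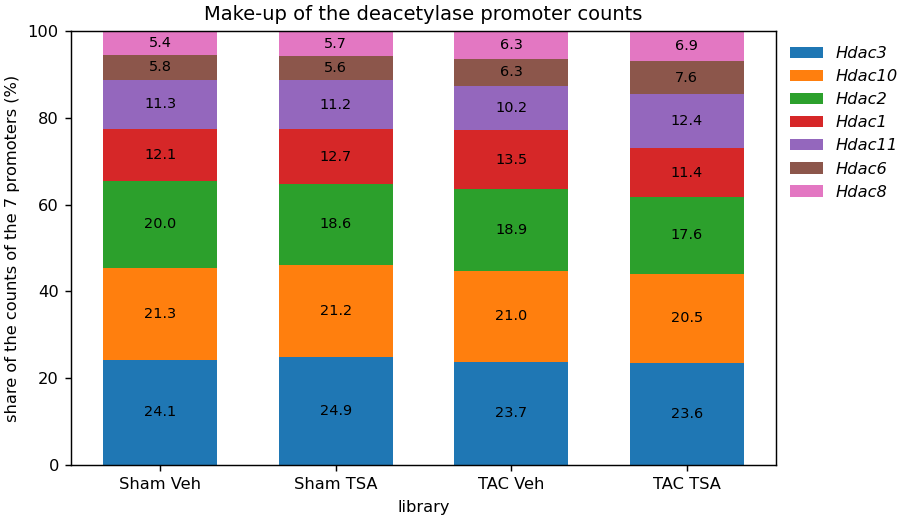
Share in percent (vertical axis) of the summed counts of the 7 promoters that each gene holds in each library (horizontal axis). Hdac3 holds 23.6 to 24.9% in every library, and Hdac6 and Hdac8 together hold 11.2% in Sham Veh and 14.5% in TAC TSA.

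An additive model of surgery and drug over all 4 libraries gave the only test, with 1 residual degree of freedom. None of the 7 promoters passed it (edgeR quasi-likelihood test, Benjamini-Hochberg adjustment over 22835 genes, threshold 0.05), and none had an unadjusted p under 0.05, where 9.32% of all genes had for surgery and 4.27% for the drug. By this test 0.035% of all genes passed for surgery and 0.215% for the drug. For surgery the log2 fold changes of the X-linked genes were the highest of the 7, at 0.22 for Hdac6 (adjusted p = 0.68) and 0.19 for Hdac8 (adjusted p = 0.73), and the lowest was that of Hdac2, at −0.14 (adjusted p = 0.68). For the drug the highest was that of Hdac11, at 0.15, and the lowest that of Hdac2, at −0.08, each with an adjusted p above 0.99. DESeq2 and limma-voom called none of the 7 either, and DESeq2 called 0 genes of 22835, with 47 (surgery) and 61 (drug) at an unadjusted p under 0.05.

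Partner subunits of the class I enzymes were measured in the same way. Of 43 genes of the SIN3, NuRD, CoREST, NCoR and SMRT, MiDAC and MIER complexes, 0 were apart in any of the 4 comparisons with TMM scaling. On the receptor scale 11 of 43 were apart and lower in TAC TSA relative to TAC Veh, and 41 of 43 relative to Sham TSA, where 14.3% and 52.1% of all genes were. With TMM scaling their median log2 ratio was −0.0020 in TAC Veh relative to Sham Veh, −0.13 in TAC TSA relative to TAC Veh, −0.12 in TAC TSA relative to Sham TSA and 0.03 in Sham TSA relative to Sham Veh. With loess scaling these medians were 0.03, −0.05, −0.01 and 0.02. In TAC TSA relative to TAC Veh 37 of 43 ratios were below 0, as were 49.8% over all genes, and 11 intervals excluded 0, all of them below, as did 10.4% over all genes. With loess scaling 33 ratios were below 0 (49.1% over all genes), and 5 intervals lay below 0 (6.24%) and 2 above (6.76%).

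Within the complexes, the lowest ratio of TAC TSA relative to TAC Veh was that of Mier3, a partner of Hdac1 and Hdac2, with 357 and 208 counts (−0.44, −0.70 to −0.19; −0.37 with loess scaling). It was also lowest in TAC TSA relative to Sham TSA (−0.45), on the same TAC TSA library. The SIN3 subunit Sap130 was highest in both comparisons with TAC TSA, at 0.18 and 0.07. In TAC Veh relative to Sham Veh the range ran from the SIN3 subunit Suds3 (−0.21) to the histone-binding Rbbp7 (0.22). In Sham TSA relative to Sham Veh it ran from Sap30l (−0.09) to the NuRD subunit Gatad2b (0.46, −0.05 to 0.99, on 56 and 79 counts). With loess scaling Gatad2b was apart and lower in TAC TSA relative to Sham TSA, at −0.67 on 79 and 45 counts, against −0.35 with TMM scaling.

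Of 10 genes for partners and substrates of Hdac6, 0 were apart in any comparison with TMM or loess scaling. On the receptor scale 1 was apart and lower in TAC TSA relative to TAC Veh, where 14.3% of all genes were. Relative to Sham TSA 6 of these 10 were, where 52.1% of all genes were. In TAC TSA relative to Sham TSA, 0 of 10 intervals lay above 0 and 1 below with TMM scaling (10.3% and 13.8% of all genes). With loess scaling 4 of 10 lay above 0 and 1 below (5.23% and 5.66% of all genes). The tubulin deacetylase Sirt2 was lowest in TAC TSA relative to TAC Veh (−0.40, −0.60 to −0.20), and the alpha tubulin Tuba4a highest (0.25, 0.06 to 0.44) after being lowest in TAC Veh relative to Sham Veh (−0.32, −0.49 to −0.15). Both values of Tuba4a rest on the same TAC Veh library. Sirt2 was also lowest in TAC TSA relative to Sham TSA (−0.42, −0.62 to −0.23), and both ratios of Sirt2 rest on the same TAC TSA library. The chaperone gene Hsp90ab1 was lowest in Sham TSA relative to Sham Veh (−0.37, −0.50 to −0.23). Its interval was also below 0 in TAC Veh relative to Sham Veh (−0.22, −0.35 to −0.08), on the same Sham Veh library. The class IIa deacetylases Hdac4, Hdac5, Hdac7 and Hdac9 had 0 of 4 apart in each comparison with TMM scaling. On the receptor scale 4 of 4 were apart and lower in TAC TSA relative to Sham TSA, where 52.1% of all genes were. The TMM medians of the class IIa genes were −0.17, 0.01, −0.24 and 0.04 in the order used above. The interval of Hdac9 lay above 0 in TAC TSA relative to TAC Veh (0.43, 0.13 to 0.73), as for 8.13% of all genes. So did that in Sham TSA relative to Sham Veh (0.46, 0.21 to 0.71), as for 5.20%. In TAC TSA relative to Sham TSA, Hdac9 (−0.27, −0.54 to −0.01) and Hdac5 (−0.22, −0.40 to −0.03) had intervals below 0, as had 13.8%. With loess scaling 1 of 4 class IIa intervals lay above 0 in TAC TSA relative to TAC Veh (6.76% of all genes). In Sham TSA relative to Sham Veh 1 of 4 did (4.73%). In TAC TSA relative to Sham TSA 1 of 4 lay below 0 (5.66%).

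**Figure D4:**
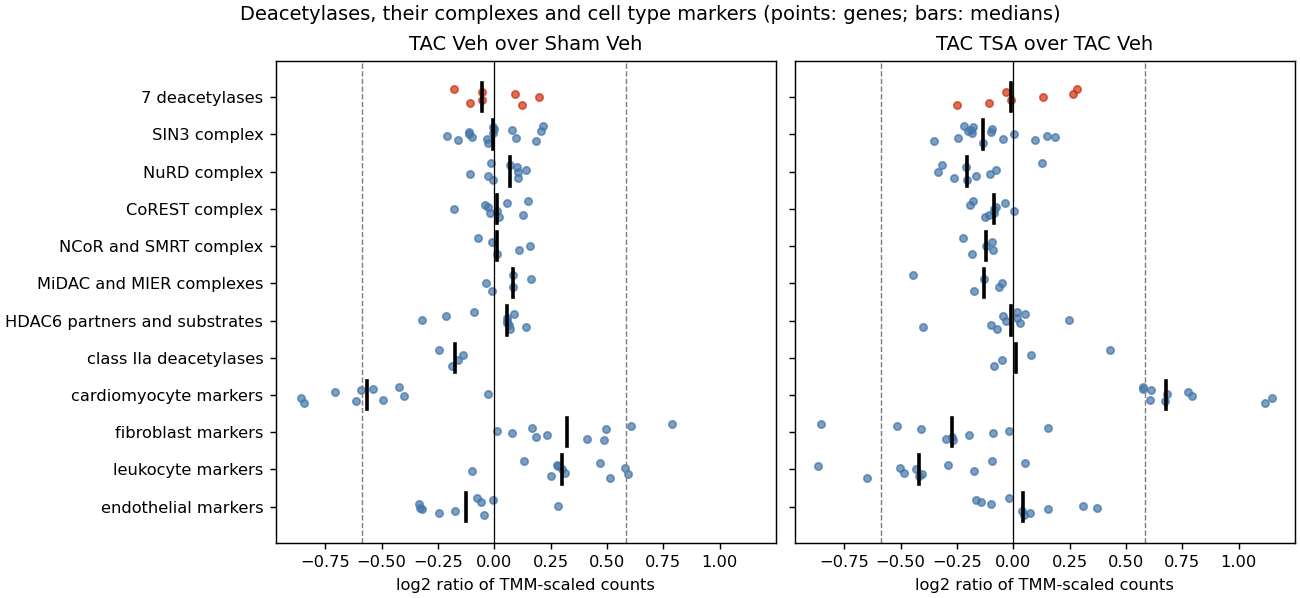
Log2 ratios of TMM-scaled counts (horizontal axis) of single genes, as points, in each list (vertical axis), with the list median as a black bar and 1.5-fold as dashed lines, for TAC Veh relative to Sham Veh and TAC TSA relative to TAC Veh. The 7 deacetylases have medians of −0.06 and −0.01, and the cardiomyocyte markers −0.57 and 0.68.

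Neighbours of the 7 genes were taken by gene coordinates without regard to strand. Gaps given here are those between gene bodies. The distance between start sites was not measured, so whether neighbours share reads was not tested. In RefSeq coordinates Rell2 lies 39 bases from Hdac3. Its counts were between 0.975 and 0.983 times those of Hdac3 in all 4 libraries, with 692 in Sham Veh and 489 in TAC TSA. The gamma-tubulin complex gene Tubgcp6, 95 bases from Hdac10, had 0.865 to 0.952 times the counts of Hdac10. The kinase gene Mapk12, at 1884 bases, had 0.905 to 0.947 times. Marcksl1, 123 bases from Hdac1, had 0.527 to 0.813 times the counts of Hdac1. Its ratio of TAC Veh relative to Sham Veh was 0.46, against 0.12 for Hdac1. At larger gaps between genes some neighbours had similar counts and others did not. Lck, 5698 bases from Hdac1, had 0.848 to 1.01 times the counts of Hdac1. Cited1, 32457 bases from Hdac8, had 0.816 to 0.873 times the counts of Hdac8. The remaining neighbours had other ratios to the counts of their deacetylase. For Hdac2 these were 0.110 to 0.201 (Hs3st5) and 1.35 to 1.55 (Marcks). For Hdac6 they were 0.298 to 0.371 (Eras) and 0.242 to 0.314 (Gata1). Diaph1 had 0.562 to 0.660 times the counts of Hdac3, and Phka1 1.47 to 1.85 times those of Hdac8. For Hdac11 the values were 0.652 to 0.792 (Nup210) and 1.06 to 1.75 (Fbln2). No neighbour had counts identical to those of a deacetylase in all 4 libraries.

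The gene closest to each deacetylase was the one with the smallest root mean square difference of log2 scaled counts over the 4 libraries, a measure of level and pattern together. The closest of all was Atrip to Hdac10, at 0.0076, followed by Acot13 to Hdac3 (0.012), Plekha1 to Hdac1 (0.016), Glyctk to Hdac11 (0.018) and Mir5619 to Hdac2 (0.019). For Hdac8 it was Rab3b (0.0303) and for Hdac6 Vpreb3 (0.0304). Plekha1 had 353, 388, 360 and 238 counts for Sham Veh, Sham TSA, TAC Veh, TAC TSA in turn, where Hdac1 had 353, 395, 361 and 241.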

How the data were processed

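Tools named in the submitters' processing notes are MACS 1.4.1 and BWA 0.5.9, with mm9 as the build. The authors deposited raw counts for promoters, 1 row per RefSeq ID and without normalisation, per the file headers. Window length, counting tool and handling of duplicates were not given in the sources used. Deposited region lists stayed out, since no gene coordinates of their build were at hand. Of 31594 RefSeq IDs 31115 matched a symbol of GRCm38.p6, and the 479 others (1.11% of counts) were left out. The filter kept genes whose mean count reached 10.

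Libraries were scaled by TMM (edgeR 4.0.16, R 4.3.3). Pairwise ratios carry exact conditional (Clopper-Pearson) 95% intervals, counts exact Poisson intervals and the surgery by drug difference a normal interval. They treat PCR reads as independent and cover counting error only. The counts of each promoter set this precision. The totals of 6842296 to 9905553 per library are sums over all RefSeq IDs, while scaled CPM rest on sums over kept genes with 1 ID each. The additive edgeR quasi-likelihood fit across all genes was repeated with DESeq2 1.42.0 and limma 3.58.1. With 1 residual degree of freedom, the interaction serves as its error, moderated by information shared over all genes. The p-values set each effect against that error, and do not measure spread between libraries of the same condition. Loess used a span of 0.3 (statsmodels 0.14.6, Python 3.11.15). Scripts were tested on simulated data. Genes were named by rule: every deacetylase, listed genes 1.5-fold apart, otherwise the extremes of the complexes, and the closest gene of each deacetylase. Mapk12, Tuba4a, Sirt2, Hsp90ab1, Hdac5, Hdac9 and other neighbours were named after their values were seen. The genes and lists were chosen with earlier results of these data known. Of 12 leukocyte markers 11 were measured.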

Additional observations from a re-analysis of the deposited data

How the results depend on the processing

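No deacetylase was 1.5-fold apart with TMM, DESeq2 size factors, total counts, loess, summed RefSeq IDs or no filter. With receptor-promoter scaling 1 was apart in TAC TSA relative to TAC Veh and 4 in TAC TSA relative to Sham TSA, all lower, where 14.3% and 52.1% of all genes were, and the medians of the 7 were −0.30 in TAC Veh relative to Sham Veh, −0.39 in TAC TSA relative to TAC Veh and −0.73 in TAC TSA relative to Sham TSA. These follow the shifts of all genes under that scaling. With the lower fold limit tried, 1 gene (Hdac6) was apart in TAC TSA relative to Sham TSA, and the share of all genes at this limit is not given here. By the interval alone, a rule added after the data were seen, 2 were in TAC TSA relative to TAC Veh and 3 in TAC TSA relative to Sham TSA. Of all genes, 8.13% and 10.3% had intervals above 0 in these 2 comparisons, and 10.4% and 13.8% had intervals below 0. Intervals of the surgery by drug difference excluded 0 for 1 gene (Hdac1) with TMM, 0 with loess and 4 with receptor scaling, alternatives chosen after seeing the data, as were those of the gene lists. Of all genes, 16.2%, 12.7% and 48.2% had such intervals under these 3 scalings. The additive fit called 8 genes for surgery and 49 for the drug; DESeq2 called 0 and 0, and edgeR on total counts 4 and 79. The cause was not tested. No paired analysis was possible because each group has 1 library, and no library could be left out of a comparison. With 147 to 178 counts, Hdac6 and Hdac8 have the widest intervals.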
